A study of Mus musculus with 12 samples.

Results

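The 33 gene symbols followed here encode the enzymes and transporters of glycolysis, the sensors of oxygen and a small number of hypoxia response outputs. They were matched by symbol in the authors' expression table, where they held 34 of 55401 gene rows, because Aldoa stood on 2 rows. The libraries were bulk RNA sequencing of migratory dendritic cells of B6 mice aged 6 to 8 weeks, with no treatment or engineered allele named in the labels for any group. Live cells were sorted as CD45 positive, lineage negative, CD11c positive, MHC class II high, CD103 positive and CD11b negative, a surface phenotype of migratory type 1 conventional dendritic cells (cDC1). Liver, duodenum and pancreas each gave 4 libraries, and each library was a pool of 2 mice, so the replicates were separate pools of one strain. Levels are given in TPM, transcript abundance scaled for gene length and library total.

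Glycolysis converts glucose to pyruvate in the cytosol, and lactate dehydrogenase turns pyruvate into lactate when glycolytic flux is high or oxygen is short. The hypoxia inducible factor HIF-1 binds DNA as a dimer of HIF1A and ARNT. It is held low by prolyl hydroxylases when oxygen is present, and it raises transcription of most glycolytic enzymes, of glucose transporters and of genes such as Vegfa. Dendritic cells use more glycolysis when they are activated through Toll-like receptors, and HIF1A is one of the factors that takes part in that switch.

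HIF-1 recognises a short core in DNA, spelled ACGTG or GCGTG. Both strands of the 250 bases before each RefSeq transcription start (GRCm38.p6) were searched for these letters, so that CACGT and CACGC counted as the cores of the other strand. The palindrome CACGTG counted as 2 overlapping cores. The promoter table held 31 of the 33 symbols, with 45 starts, and did not hold Slc2a3 or Bnip3l. A core stood in 37 of the 45 starts (82.2%), against 38.6% of all 32851 starts of the same length. Counted by gene, 29 of 31 members (93.5%) had a start with a core, against 41.5% of 27025 genes. At least 2 cores stood in 46.7% of the members' starts and in 16.7% of all starts. The median GC content was 60.4% in the members' windows and 52.4% in all windows. A match is a description of the letters and is not a measured binding site. The windows of 6 of the members called in a tissue comparison are printed below as examples. The cores are in capitals and the strand of the gene is read 5′ to 3′. Any part of these windows in the tissue differences was not tested. For Ldha and Pfkfb3, which have 2 starts each, the start with more cores is shown. The windows lie at chr6:125165774-125166023, minus strand, for Gapdh; chr7:46845554-46845803, plus strand, for Ldha; chr12:73907617-73907866, plus strand, for Hif1a; chr2:11502091-11502340, minus strand, for Pfkfb3; chr11:120948817-120949066, plus strand, for Slc16a3; and chr13:55021386-55021635, minus strand, for Hk3.
Gapdh: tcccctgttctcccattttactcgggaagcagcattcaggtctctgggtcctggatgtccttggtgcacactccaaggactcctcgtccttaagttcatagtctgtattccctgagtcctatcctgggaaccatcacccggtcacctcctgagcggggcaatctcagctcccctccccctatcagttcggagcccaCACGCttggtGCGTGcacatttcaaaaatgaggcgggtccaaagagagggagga
Ldha: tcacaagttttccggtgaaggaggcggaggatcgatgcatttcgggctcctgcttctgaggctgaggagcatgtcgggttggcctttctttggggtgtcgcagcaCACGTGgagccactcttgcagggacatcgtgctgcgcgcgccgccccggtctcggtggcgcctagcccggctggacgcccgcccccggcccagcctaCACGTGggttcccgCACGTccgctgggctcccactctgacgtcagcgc
Hif1a: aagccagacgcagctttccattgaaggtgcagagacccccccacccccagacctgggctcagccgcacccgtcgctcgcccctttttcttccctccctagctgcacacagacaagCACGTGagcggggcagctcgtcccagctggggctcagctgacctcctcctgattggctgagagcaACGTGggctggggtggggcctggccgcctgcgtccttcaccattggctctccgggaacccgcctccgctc
Pfkfb3: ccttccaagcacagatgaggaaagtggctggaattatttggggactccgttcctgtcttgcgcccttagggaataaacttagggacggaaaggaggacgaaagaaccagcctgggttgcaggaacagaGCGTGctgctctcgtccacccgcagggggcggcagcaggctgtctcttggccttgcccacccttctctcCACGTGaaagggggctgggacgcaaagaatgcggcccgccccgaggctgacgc
Slc16a3: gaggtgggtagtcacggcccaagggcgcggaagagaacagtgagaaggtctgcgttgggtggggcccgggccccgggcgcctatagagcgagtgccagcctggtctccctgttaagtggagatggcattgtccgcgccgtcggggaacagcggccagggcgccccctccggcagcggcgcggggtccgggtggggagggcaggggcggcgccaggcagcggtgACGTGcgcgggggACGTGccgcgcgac
Hk3: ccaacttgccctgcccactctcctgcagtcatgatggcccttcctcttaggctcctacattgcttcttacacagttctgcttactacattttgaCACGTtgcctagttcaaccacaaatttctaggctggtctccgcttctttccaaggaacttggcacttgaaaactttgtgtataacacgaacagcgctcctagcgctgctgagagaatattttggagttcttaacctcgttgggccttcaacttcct
Ldha, whose product makes lactate, had 5 cores and Hk3, a hexokinase, had 1. Pfkfb3 and Hif1a had 3 cores each, and Gapdh and Slc16a3 had 2 each.

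The libraries held 220897606 to 356072585 estimated counts, and each of the 34 rows had at least 10 counts in every library. The 10 cDC1 markers were present in every library, at a summed 2259 to 2493 TPM in liver, 1685 to 2264 in duodenum and 2114 to 2322 in pancreas. Markers of other cells differed by tissue. The 8 plasma cell markers summed to 9666 to 14648 TPM in duodenum, to 1432 in liver 2 and 95.6 to 108 in the other liver libraries, and to 1465 and 1697 in pancreas 3 and 4 against 101 and 102 in pancreas 1 and 2. The 16 acinar markers summed to 1650 to 9463 TPM in pancreas and to 7.06 to 27.8 TPM in the other tissues. The 10 immediate-early genes, which include Fos and Egr1, summed to 1941 to 2912 TPM in duodenum, 267 to 290 in liver and 312 to 543 in pancreas. All 10 were lower in liver than in duodenum and 9 of 10 were lower in pancreas (called by edgeR's quasi-likelihood test). The 12 hepatocyte markers summed to 99.4 to 154 TPM in liver, 18.7 to 26.5 in duodenum and 171 to 211 in pancreas, with Trf at 64.4 TPM or more in each liver and 166 or more in each pancreas library, and 11 of 12 were higher in liver than in duodenum and 8 higher in liver than in pancreas. The 7 islet markers summed to 17.3 to 31.4 TPM in pancreas and to 4.70 or less elsewhere. Erythroid markers summed to 326 TPM in duodenum 3 and to 19.3 or less elsewhere. The part of these cells and genes in the differences below was not tested, and in bulk samples fewer cells of a type and less RNA per cell cannot be told apart.

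The mean summed RNA of the members was highest in the duodenal libraries. The member rows summed to 3211 ± 534 TPM (SD, n = 4) in duodenum, 2513 ± 87.8 in liver and 2379 ± 135 in pancreas. The duodenal libraries spread widely, from 2567 TPM in duodenum 2 to 3796 in duodenum 3, and duodenum 2 lay within the range of the liver libraries, which reached 2614. Gapdh, Ldha, Gpi1, Aldoa and Pkm made up 75.8% of the sum in duodenum, 68.9% in liver and 68.6% in pancreas. The order of the tissues differed between single steps, which are described by role below.

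**Figure D1:**
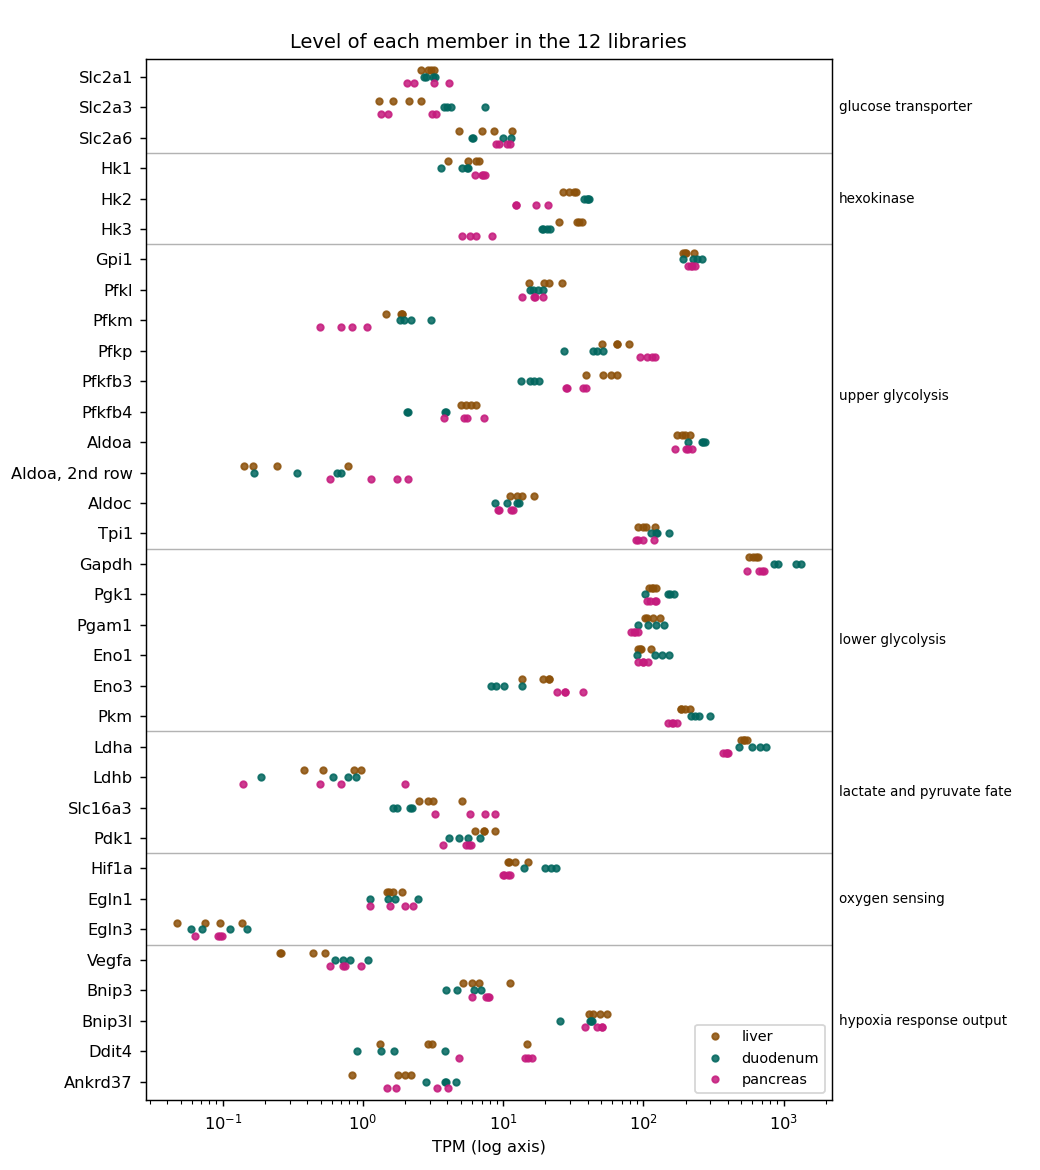
Levels of the member rows in TPM in each of the 12 libraries, by tissue, on a log axis. Gapdh and Ldha stand highest in every tissue, and Egln3 stands lowest, with tissue means under 0.1 TPM.

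Each tissue was tested against each other tissue in one model of 44624 genes, with a gene called at an adjusted p under 0.05 (edgeR quasi-likelihood test, Benjamini-Hochberg adjustment over all 44624). Between liver and duodenum, 1 member was higher in liver and 6 were lower, 20.6% of the 34 rows, where 7.32% of all genes tested were called (3.37% higher and 3.95% lower). Between pancreas and duodenum, 5 members were higher in pancreas and 8 were lower, 38.2% of the rows, where 7.70% of all genes were called (3.76% higher and 3.94% lower). Against pancreas, 2 members were higher in liver and 0 were lower, 5.88% of the rows, where 1.11% of all genes were called (0.426% higher and 0.681% lower). At an unadjusted p under 0.05 in the edgeR test, 11 of the 34 rows differed between liver and pancreas, and 4020 of all 44624 genes did. At a mean of at least 1 TPM these counts were 9 of 30 members and 2552 of 16833 genes. DESeq2 called 3 members higher and 3 lower in liver than in pancreas, and 1171 of all genes. Well expressed genes were called more often. Among the 16833 genes with a mean of at least 1 TPM the called shares were 16.2%, 16.9% and 2.56%, against 20.0%, 43.3% and 6.67% of the 30 members at that level. On that background the members' share in liver against duodenum was near that of the other expressed genes. The median log2 difference of the 34 rows was -0.22 in liver minus duodenum, -0.15 in pancreas minus duodenum and -0.09 in liver minus pancreas, where the medians of all genes were 0.10, 0.09 and 0.01. At a mean of at least 1 TPM the medians were -0.20, -0.15 and -0.08 for members and 0.003, 0.02 and -0.01 for all genes. Over the alternatives the median of the 34 rows ran from -0.36 (without duodenum 2) to -0.01 (limma on log2(TPM + 1)) in the first comparison. It ran from -0.31 (without pancreas 3) to -0.05 (the same limma fit) in the second and from -0.17 (without pancreas 4) to -0.0004 (limma on log2(TPM + 0.1)) in the third. The comparisons with duodenum share the 4 duodenal libraries. In all, 15 rows were called in at least 1 comparison and 19 in none.

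**Figure D2:**
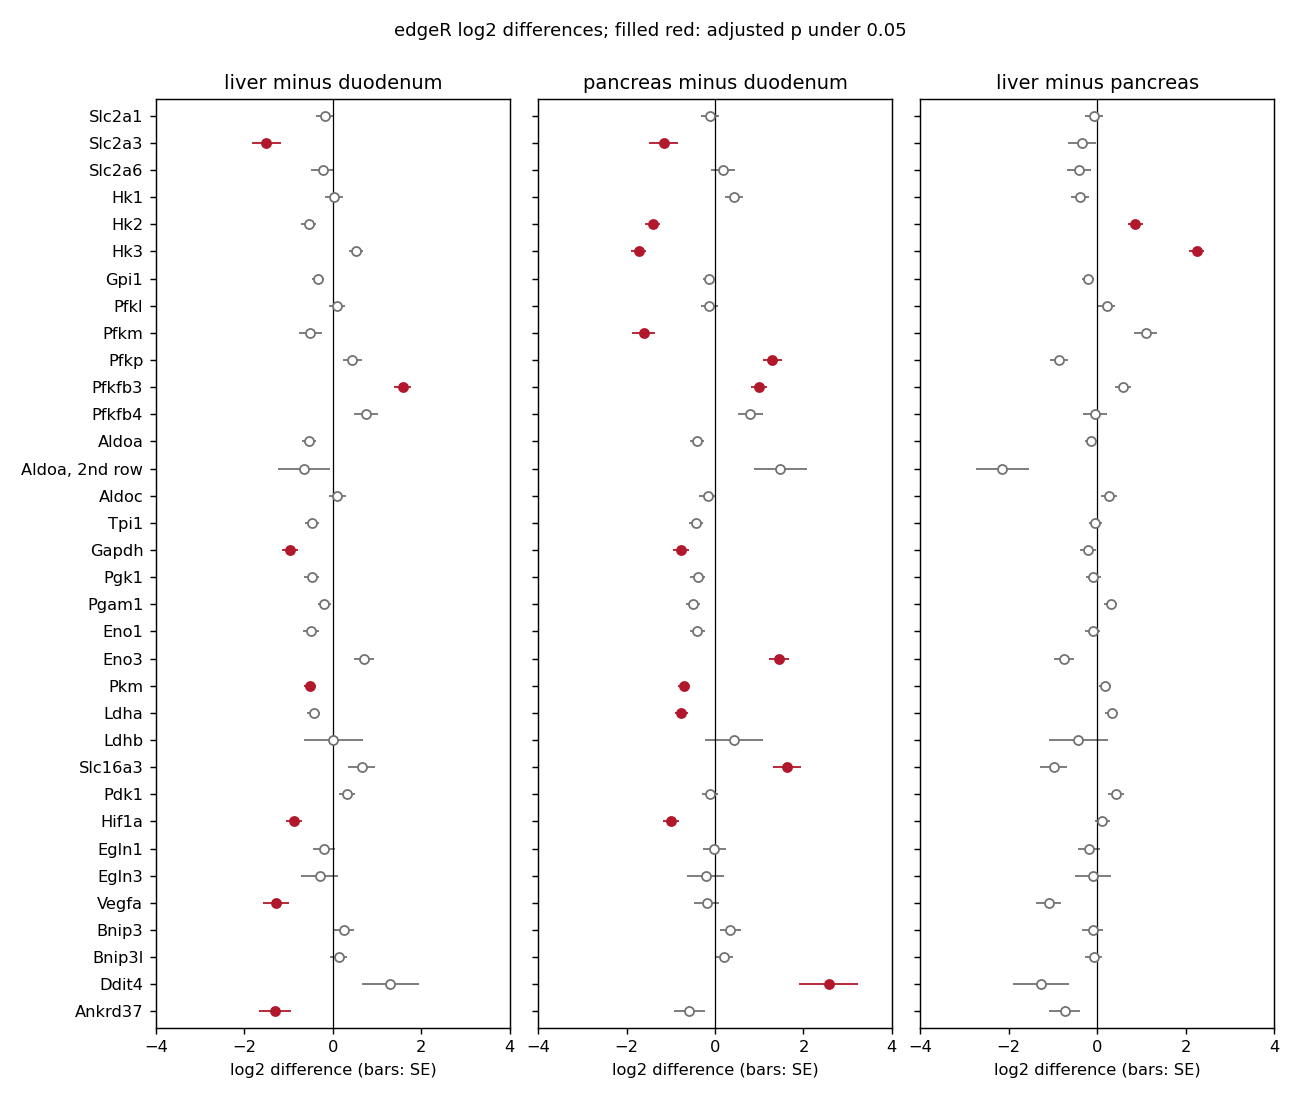
Log2 differences with standard errors for every member row in the 3 tissue comparisons, with called rows marked. Hk3 has the largest called difference between liver and pancreas, at 2.25, and Pfkfb3 the only called increase in liver over duodenum, at 1.58.

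Among the glucose transporters, Slc2a3 was higher in duodenum than in the other tissues, and Slc2a1 and Slc2a6 were not called in any comparison. Slc2a3 encodes GLUT3, a high-affinity transporter. It stood at 1.63, 1.29, 2.11 and 2.58 TPM in liver, at 7.38, 3.76, 3.95 and 4.23 in duodenum and at 3.29, 3.13, 1.34 and 1.52 in pancreas. Every duodenal library was above every liver and pancreas library, and duodenum 1 was the highest. The log2 difference was -1.51 ± 0.33 (SE, adjusted p = 0.0109) in liver minus duodenum, a 2.84-fold lower level, and -1.16 ± 0.33 (adjusted p = 0.0419) in pancreas minus duodenum. The second call was lost without duodenum 1, 3 or 4 or pancreas 3 or 4, at adjusted p from 0.0576 to 0.147, and under 6 other settings, at up to 0.304. Slc2a1, which encodes the widespread transporter GLUT1, stood at 3.06, 3.23, 2.92 and 2.58 TPM in liver, 2.79, 2.71, 3.27 and 3.15 in duodenum and 3.20, 4.13, 2.29 and 2.07 in pancreas. These ranges overlapped in every pair of tissues. Slc2a6, which encodes the lysosomal transporter GLUT6, was the most abundant of the 3 in mean, at 8.03 ± 2.83 TPM in liver, 8.35 ± 2.70 in duodenum and 10.0 ± 1.12 in pancreas.

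The hexokinases, which phosphorylate glucose as it enters the cell, gave the sharpest tissue difference of the pathway. Hk2 and Hk3 were both low in pancreas, while Hk1 was not called. Hk2 encodes the inducible hexokinase that can bind mitochondria. It stood at 33.2, 29.4, 32.0 and 26.8 TPM in liver, 37.4, 40.2, 40.9 and 39.9 in duodenum and 12.4, 17.1, 12.3 and 20.9 in pancreas. No ranges overlapped, with duodenum highest and pancreas lowest. In pancreas minus duodenum the log2 difference was -1.41 ± 0.17 (adjusted p = 0.000119), a 2.65-fold lower level. In liver minus pancreas it was 0.86 ± 0.17 (adjusted p = 0.0222), a call lost without liver 1, 2 or 3 or pancreas 1 or 3, at adjusted p from 0.0555 to 0.0901, and with a replicate block or without the libraries with immunoglobulin reads, at up to 0.0988. The difference of -0.54 ± 0.17 between liver and duodenum did not pass (adjusted p = 0.0736).

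Hk3 encodes a hexokinase found mostly in myeloid cells. It stood at 34.98, 36.7, 24.9 and 33.6 TPM in liver, 18.8, 19.3, 20.5 and 21.6 in duodenum and 5.77, 8.34, 5.07 and 6.38 in pancreas. The 3 ranges were again apart, in another order from Hk2, with liver highest. Hk3 differed in log2 by 2.25 ± 0.17 in liver minus pancreas (adjusted p = 3.61e-06), a 4.76-fold higher level, and -1.73 ± 0.16 in pancreas minus duodenum (adjusted p = 1.06e-05). In liver minus duodenum the difference of 0.53 ± 0.16 did not pass (adjusted p = 0.064). Both calls passed under each of the 23 alternatives run.

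The balance of Hk2 and Hk3 also differed between tissues. The ratio of Hk2 to Hk3 in TPM was 0.95, 0.80, 1.29 and 0.80 in liver, 1.99, 2.09, 1.99 and 1.84 in duodenum and 2.15, 2.05, 2.43 and 3.28 in pancreas. Every liver library lay below every library of the other tissues. Hk1, the housekeeping hexokinase, had 5.67 ± 1.19 TPM in liver, 4.94 ± 0.912 in duodenum and 6.98 ± 0.479 in pancreas, and its difference of 0.42 ± 0.20 in pancreas minus duodenum did not pass (adjusted p = 0.282). Hk1 took 24.5% of the summed hexokinase TPM in pancreas against 8.24% in liver and 7.65% in duodenum. The sum of the 3 hexokinases was 68.6 ± 6.04 TPM in liver, 64.6 ± 2.58 in duodenum and 29.1 ± 5.15 in pancreas. The pancreatic libraries, at 24.5 to 34.3 TPM, were below all others, which began at 61.8. Pancreas 1 had the highest acinar marker sum, 9463 TPM, and pancreas 2 the lowest, 1650 TPM, and their Hk3 levels of 5.77 and 8.34 TPM were both below the lowest duodenal library. The share of acinar RNA in these levels was not tested.

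**Figure D3:**
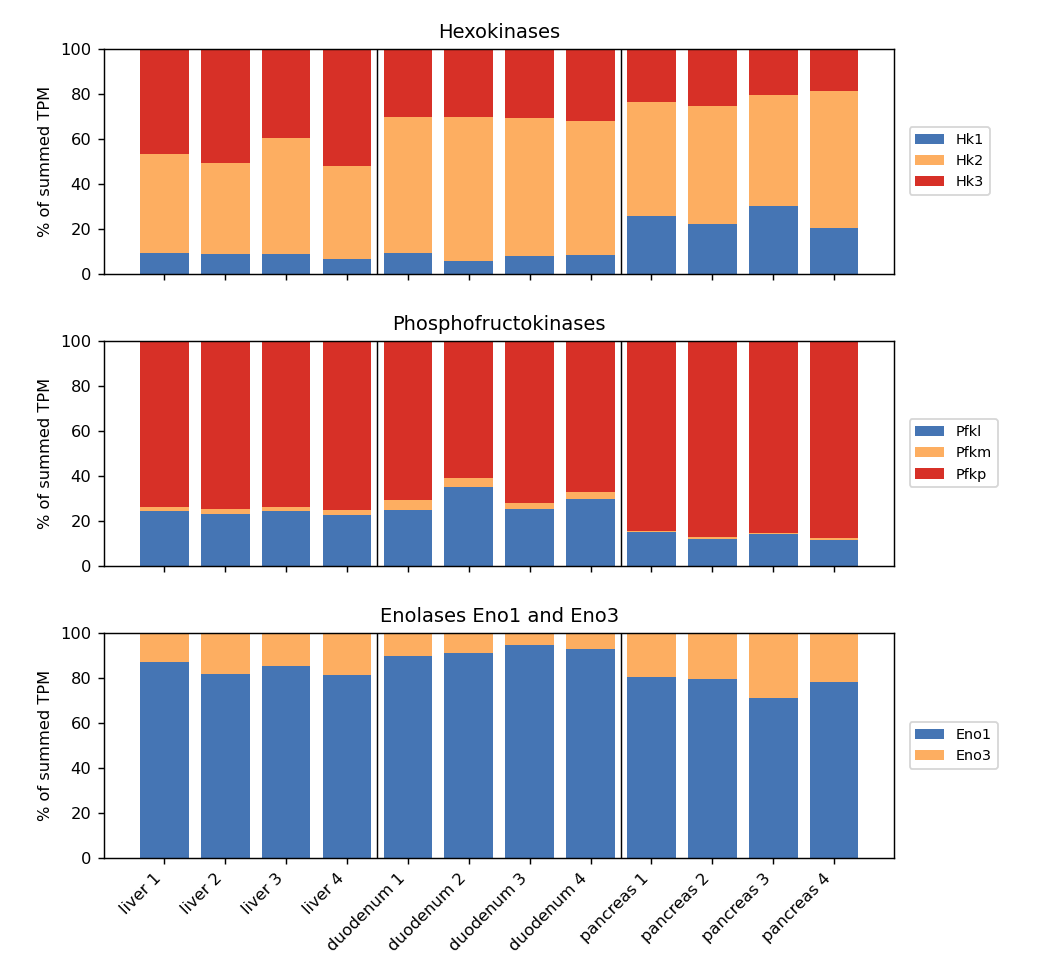
Share of the summed TPM of each isozyme group held by each member, in percent, for each library; each bar sums to 100. Hk3 holds 39.8 to 52.1% of hexokinase TPM in liver and 18.6 to 25.5% in pancreas, where Pfkp holds 84.6 to 87.9% of phosphofructokinase TPM.

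In upper glycolysis, genes of the phosphofructokinase step were called in 2 comparisons, while the enzymes around it were not called. Pfkp, the platelet isoform of phosphofructokinase, stood at 79.0, 64.4, 64.4 and 50.3 TPM in liver, 46.9, 27.2, 51.1 and 43.9 in duodenum and 94.6, 121, 116 and 106 in pancreas. The pancreatic libraries were above all others, while liver 4 fell within the duodenal range. The log2 difference in pancreas minus duodenum was 1.30 ± 0.21 (adjusted p = 0.00144), a 2.46-fold higher level, and the difference of -0.86 ± 0.21 in liver minus pancreas did not pass (adjusted p = 0.0803). Pfkm, the muscle isoform, moved the other way at a far lower level. It stood at 1.88, 1.89, 1.87 and 1.45 TPM in liver, 3.07, 1.82, 1.96 and 2.20 in duodenum and 0.493, 0.831, 0.696 and 1.08 in pancreas. Pancreas was below both other tissues in every library. In pancreas minus duodenum the log2 difference of Pfkm was -1.61 ± 0.27 (adjusted p = 0.00142). Liver minus pancreas gave 1.10 ± 0.26 (adjusted p = 0.0699) and was called under 6 of the 23 alternatives, at adjusted p from 0.00498 to 0.248 over all of them. Pfkl, the liver isoform, was not called, at 20.6 ± 4.54, 17.2 ± 1.70 and 16.6 ± 2.36 TPM in liver, duodenum and pancreas. The 3 isoforms together summed to 127 ± 12.4 TPM in pancreas, 86.9 ± 16.4 in liver and 61.8 ± 11.8 in duodenum. Pfkp was thus high in the tissue where Hk2 and Hk3 were low.

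Pfkfb3 was the one member called higher against duodenum in each of the other tissues. Its product makes fructose 2,6-bisphosphate, the strongest activator of phosphofructokinase. Pfkfb3 stood at 39.0, 64.3, 51.2 and 58.4 TPM in liver, 17.9, 13.4, 15.6 and 16.5 in duodenum and 39.2, 28.2, 37.4 and 28.6 in pancreas. All duodenal libraries were below all others, and liver and pancreas overlapped at 39 TPM. The log2 difference was 1.58 ± 0.19 in liver minus duodenum (adjusted p = 0.000107), a 2.99-fold higher level, and 1.00 ± 0.18 in pancreas minus duodenum (adjusted p = 0.00331). Without liver 2 and pancreas 3 and 4, the second value was 0.90 ± 0.23 and did not pass (adjusted p = 0.0567). Those were the liver and pancreas libraries with many immunoglobulin reads. All 4 duodenal libraries held more such reads and stayed in. Pfkfb4, a related kinase and phosphatase, stood at 5.66 ± 0.608, 2.97 ± 1.05 and 5.47 ± 1.47 TPM in liver, duodenum and pancreas and was not called (adjusted p = 0.127 and 0.101 against duodenum).

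The remaining enzymes of upper glycolysis were not called, and Gpi1, Aldoa and Tpi1 were abundant in every tissue. Gpi1, which isomerises glucose 6-phosphate, had 205 ± 17.1 TPM in liver, 230.4 ± 28.7 in duodenum and 220.3 ± 10.5 in pancreas. Aldoa, the main aldolase (ENSMUSG00000030695), had 194 ± 17.6, 252 ± 30.9 and 199 ± 21.9 TPM, and its difference of -0.54 ± 0.16 in liver minus duodenum was just above the threshold (adjusted p = 0.0517). The other Aldoa row (ENSMUSG00000114515) stood at 0.332 ± 0.300, 0.464 ± 0.253 and 1.39 ± 0.675 TPM. Aldoc, a second aldolase, had 13.5 ± 2.34, 11.2 ± 1.91 and 10.4 ± 1.33 TPM, and Tpi1, triose phosphate isomerase, had 104 ± 12.4, 128 ± 17.1 and 99.98 ± 13.6.

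In lower glycolysis, Gapdh and Pkm were lower outside the duodenum and Eno3 was higher in pancreas. Gapdh, which encodes glyceraldehyde 3-phosphate dehydrogenase, was the most abundant member. It stood at 656, 568, 641 and 604 TPM in liver, 912, 850.4, 1327 and 1219 in duodenum and 544, 669, 731 and 704 in pancreas. Every duodenal library was above every other library. Gapdh gave a log2 difference of -0.97 ± 0.18 (adjusted p = 0.0039) in liver minus duodenum, a 1.96-fold lower level, and -0.77 ± 0.18 (adjusted p = 0.0155) in pancreas minus duodenum. The pancreatic call was lost without duodenum 3, at an adjusted p of 0.0573. Gapdh has many processed copies in the mouse genome, and 124 near-identical genes of the table held 17.9 to 25.7% of the combined TPM in each library, so reads could be split among them. With those copies added the differences were -0.90 ± 0.18 (adjusted p = 0.00612) and -0.73 ± 0.18 (adjusted p = 0.0198).

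Pkm encodes the pyruvate kinase of most cells outside liver and red cells. It stood at 216, 186, 196 and 185 TPM in liver, 234, 219, 298 and 251 in duodenum and 149, 174, 162 and 160.5 in pancreas. The 3 ranges did not overlap, with duodenum highest and pancreas lowest. The log2 difference was -0.71 ± 0.14 in pancreas minus duodenum (adjusted p = 0.00456). In liver minus duodenum it was -0.52 ± 0.14 (adjusted p = 0.0318), a call lost without liver 2 or 4 or duodenum 1, 3 or 4, at adjusted p from 0.0593 to 0.107. The call was also lost without liver 2 and pancreas 3 and 4 together, at 0.123.

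Eno3, an enolase best known from muscle, stood at 13.7, 21.2, 19.2 and 21.1 TPM in liver, 13.7, 8.84, 8.24 and 10.2 in duodenum and 24.3, 27.4, 37.2 and 27.7 in pancreas. Pancreas was above both other tissues, and liver lay above duodenum, with liver 1 and duodenum 1 nearly level at 13.7 TPM. The log2 difference in pancreas minus duodenum was 1.45 ± 0.23 (adjusted p = 0.00106), a 2.74-fold higher level, and that in liver minus duodenum, 0.71 ± 0.23, did not pass (adjusted p = 0.0777). Eno1, the widespread enolase, was not called, at 98.95 ± 9.64 TPM in liver, 124 ± 26.1 in duodenum and 99.8 ± 6.42 in pancreas. Eno3 thus made 22.6% of the TPM of the pair in pancreas, 15.97% in liver and 7.82% in duodenum. Pgk1, phosphoglycerate kinase, had 116 ± 5.22, 144 ± 27.9 and 115 ± 8.06 TPM in liver, duodenum and pancreas. Pgam1, phosphoglycerate mutase, had 114 ± 12.8, 116 ± 20.3 and 86.3 ± 3.72, and neither was called.

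At the fate of pyruvate, Ldha was lower and Slc16a3 higher in pancreas than in duodenum. Ldha encodes the lactate dehydrogenase subunit that favours lactate. It stood at 518, 519, 548 and 498 TPM in liver, 597, 484, 747 and 674 in duodenum and 388, 404, 397 and 368 in pancreas. Every pancreatic library was below all others, and duodenum 2 was below all 4 liver libraries. The log2 difference in pancreas minus duodenum was -0.76 ± 0.15 (adjusted p = 0.00502), a 1.69-fold lower level. Without liver 2 and pancreas 3 and 4 it was -0.84 ± 0.22 and did not pass (adjusted p = 0.0631). The differences of -0.43 ± 0.15 in liver minus duodenum and 0.33 ± 0.15 in liver minus pancreas did not pass (adjusted p = 0.104 and 0.524). Ldhb, the subunit of oxidative tissues, held at most 0.21% of lactate dehydrogenase TPM on average in each tissue.

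Slc16a3 encodes MCT4, the monocarboxylate transporter that exports lactate. It stood at 2.52, 2.92, 3.15 and 5.09 TPM in liver, 1.63, 1.75, 2.16 and 2.24 in duodenum and 5.83, 8.69, 7.35 and 3.26 in pancreas. All duodenal libraries were below all others, and liver 4 and pancreas 4 made liver and pancreas overlap. The log2 difference was 1.63 ± 0.31 in pancreas minus duodenum (adjusted p = 0.0039), a 3.09-fold higher level, and 0.65 ± 0.30 in liver minus duodenum (adjusted p = 0.262). Pdk1, the kinase that shuts pyruvate dehydrogenase, was not called, at 7.41 ± 1.03, 5.34 ± 1.19 and 5.19 ± 1.00 TPM in liver, duodenum and pancreas.

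Among the oxygen sensing genes, Hif1a was higher in duodenum and the prolyl hydroxylases were not called. Hif1a encodes the oxygen-regulated subunit of HIF-1, whose activity is set mainly by protein stability, which RNA levels do not measure. It stood at 12.1, 15.0, 10.8 and 10.9 TPM in liver, 19.7, 14.2, 23.8 and 21.9 in duodenum and 10.8, 11.1, 9.98 and 10.2 in pancreas. Duodenum was above pancreas in every library, and liver 2 lay above duodenum 2. The log2 difference was -0.88 ± 0.17 in liver minus duodenum (adjusted p = 0.0061), a 1.84-fold lower level, and -1.001 ± 0.18 in pancreas minus duodenum (adjusted p = 0.00224), and both passed under each alternative. Egln1, the main prolyl hydroxylase, had 1.63 ± 0.187, 1.70 ± 0.573 and 1.73 ± 0.502 TPM in liver, duodenum and pancreas. Egln3, a hypoxia-induced family member, had 0.0883 ± 0.0381, 0.0978 ± 0.0413 and 0.0877 ± 0.0162.

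The hypoxia response outputs did not move as one group. Vegfa and Ankrd37 were lower in liver than in duodenum, Ddit4 was higher in pancreas than in duodenum, and Bnip3 and Bnip3l were not called. Vegfa, the angiogenic growth factor, stood at 0.443, 0.536, 0.255 and 0.259 TPM in liver, 0.636, 1.09, 0.805 and 0.722 in duodenum and 0.969, 0.738, 0.714 and 0.581 in pancreas. Every liver library was below all others. In liver minus duodenum the log2 difference was -1.28 ± 0.29 (adjusted p = 0.0136), and in liver minus pancreas it was -1.10 ± 0.29 and did not pass (adjusted p = 0.108). Ankrd37, an ankyrin repeat gene induced by HIF-1, stood at 2.19, 2.00, 1.78 and 0.835 TPM in liver, 3.84, 3.89, 4.60 and 2.80 in duodenum and 4.06, 1.49, 3.39 and 1.72 in pancreas. Liver and duodenum did not overlap, and pancreas overlapped both. The difference of -1.31 ± 0.35 in liver minus duodenum (adjusted p = 0.0374) was lost without liver 2, 3 or 4 or duodenum 1 or 3, at adjusted p from 0.0576 to 0.102, and under 3 other settings, at no more than 0.102.

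Ddit4 encodes REDD1, an inhibitor of mTORC1 that hypoxia and glucocorticoids induce. It stood at 14.9, 2.92, 1.32 and 3.08 TPM in liver, 1.66, 0.904, 1.33 and 3.84 in duodenum and 15.0, 14.3, 4.84 and 16.1 in pancreas. Pancreas was above duodenum in every library, and liver 1 stood with the pancreatic libraries. The log2 difference in pancreas minus duodenum was 2.57 ± 0.67 (adjusted p = 0.029), a 5.93-fold higher level with a wide error. The call was lost without duodenum 1, 2 or 3 or pancreas 1, 2 or 4, at adjusted p from 0.0663 to 0.0906, and under 3 other settings, at up to 0.121. Bnip3l and Bnip3, mitophagy receptors, had 47.1 ± 6.05, 38.1 ± 8.38 and 46.7 ± 5.78 TPM and 7.26 ± 2.63, 5.41 ± 1.38 and 7.31 ± 0.924 TPM in liver, duodenum and pancreas.

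**Figure D4:**
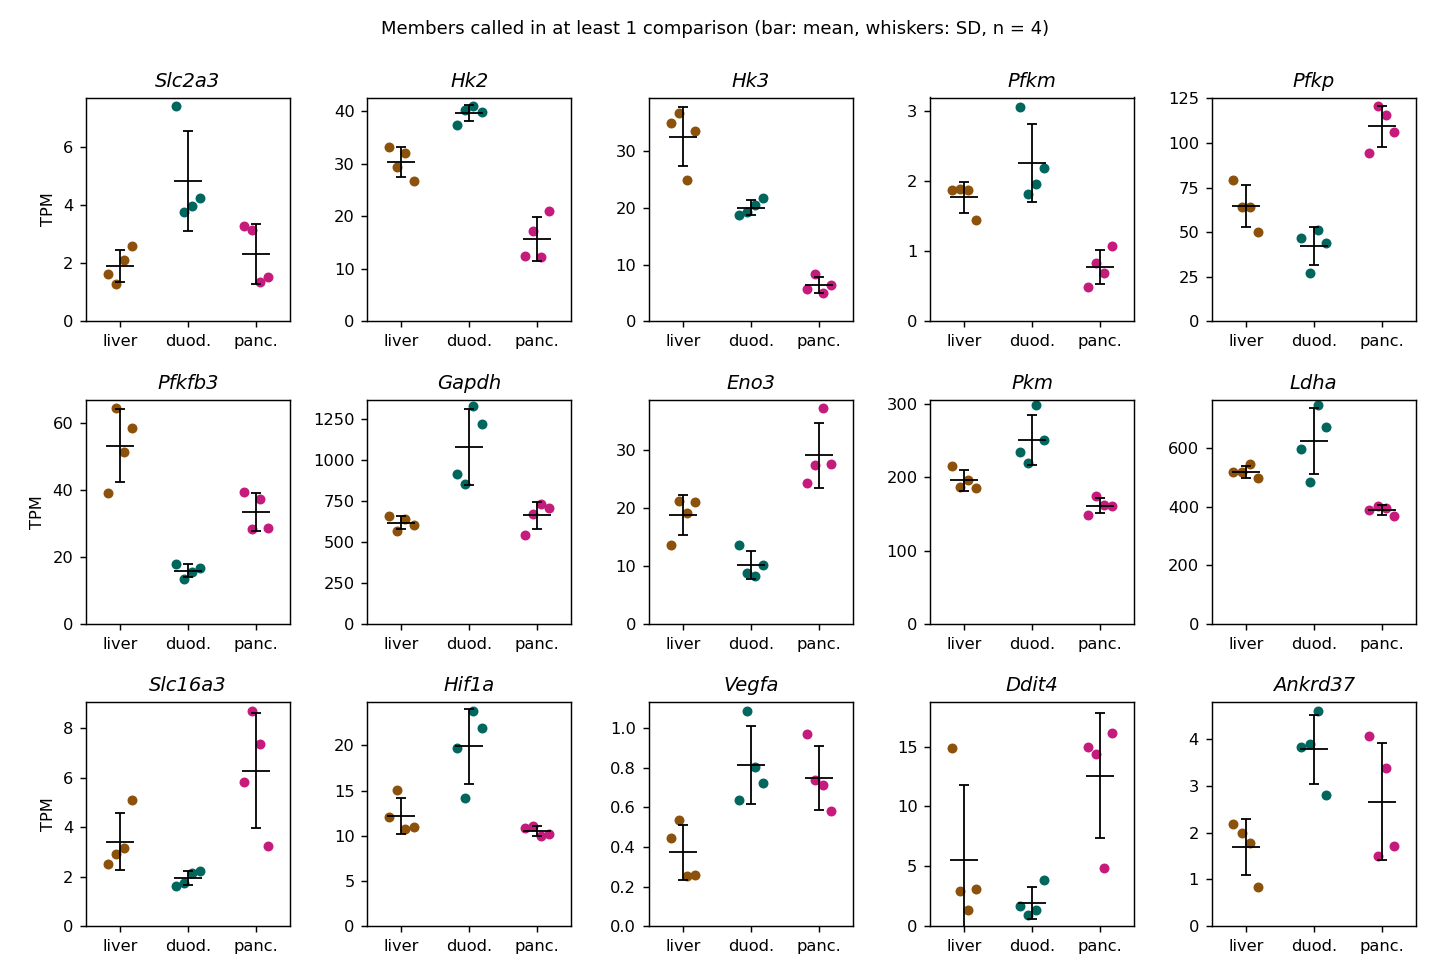
TPM in each library for the members called in at least 1 comparison, with the mean and SD of each tissue (n = 4; the lower whisker of Ddit4 in liver is cut at 0). Hk3 lies at 24.9 to 36.7 TPM in liver and at 5.07 to 8.34 in pancreas, and Gapdh lies at 850.4 TPM or more in every duodenal library.

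Much of the spread among the abundant enzymes lay between duodenal libraries. For the 9 members with a mean of at least 80 TPM in every tissue, each level was divided by the gene's mean over the 12 libraries. The median of the 9 ratios was 1.15, 0.947, 1.38 and 1.21 in duodenum 1 to 4, 0.935, 0.895, 0.970 and 0.923 in liver 1 to 4, and 0.812, 0.963, 0.863 and 0.890 in pancreas 1 to 4. By this median duodenum 2 lay among the liver and pancreas libraries. Its ratios for Gapdh and Pkm, both 1.08, were still above those of every liver and pancreas library. Duodenum 2 also had the most counts, 356072585. Without duodenum 2, 13 members were lower in liver than in duodenum, where 7.17% of all genes were called lower. In pancreas 13 were lower, where 6.66% were. The shares among genes with a mean of at least 1 TPM, which were larger in the main fit, were not counted without this library. In liver the additions were Hk2, Gpi1, Aldoa, Tpi1, Pgk1, Eno1 and Ldha, and in pancreas they were Aldoa, Tpi1, Pgk1, Pgam1 and Eno1. Without that library the log2 difference in liver minus duodenum was -0.71 ± 0.12 for Eno1, -0.69 ± 0.11 for Pgk1 and -0.63 ± 0.10 for Ldha. Duodenum 2 was singled out here because such enzymes were low in it, so these larger differences are no separate test. Leaving out duodenum 1, 3 or 4 instead gave 4, 4 and 5 members lower in liver, and 7, 6 and 7 lower in pancreas. Erythroid markers were high in duodenum 3, which also had the highest median ratio, and their part was not tested.

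**Figure D5:**
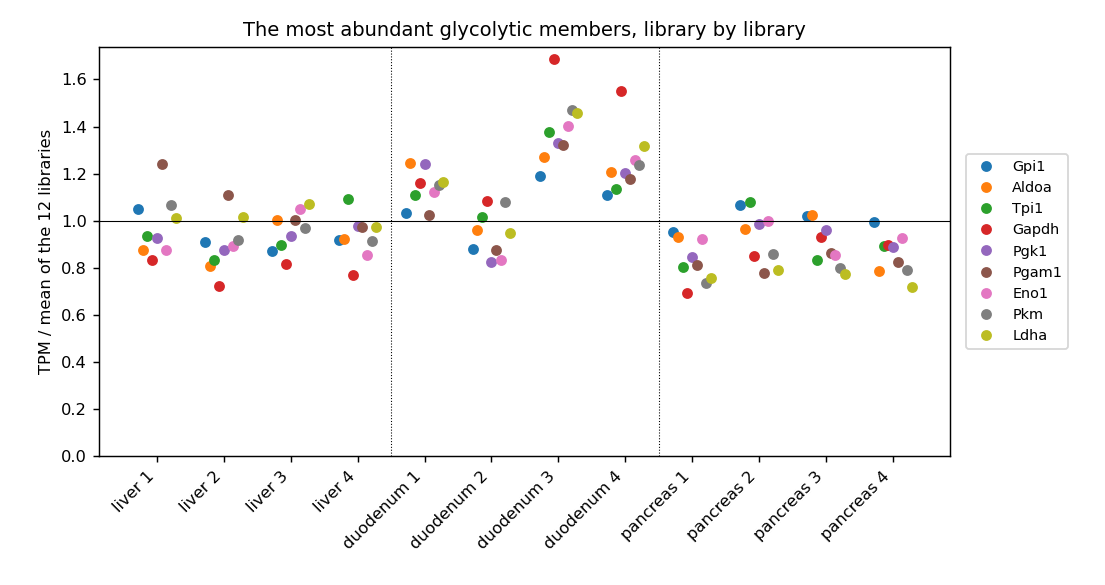
TPM of the 9 most abundant members divided by each gene's mean over the 12 libraries, by library, with the line at 1. Duodenum 1, 3 and 4 lie above 1 for all 9 genes, while duodenum 2 spans 0.823 to 1.08.

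Of 75 related carbohydrate and hypoxia genes outside the 33 symbols, 3 were higher and 7 lower in liver than in duodenum (13.3%), 4 were higher and 11 lower in pancreas than in duodenum (20.0%), and 1 was higher and 1 lower in liver than in pancreas (2.67%). Over all genes the called shares were 7.32%, 7.70% and 1.11%, and over genes of at least 1 TPM they were 16.2%, 16.9% and 2.56%, so the related genes' shares were near those of other expressed genes. Their median log2 differences were -0.08, -0.11 and 0.00. Bhlhe40, a transcriptional repressor that HIF-1 and other signals induce, stood at 8.96 ± 3.06 TPM in liver, 53.3 ± 13.95 in duodenum and 28.9 ± 6.14 in pancreas. Its log2 difference was -2.73 ± 0.30 in liver minus duodenum (adjusted p = 5.12e-05) and -1.78 ± 0.29 in liver minus pancreas (adjusted p = 0.00534). P4ha1, a collagen prolyl hydroxylase subunit, had log2 differences from duodenum of -0.71 ± 0.19 in liver and -0.87 ± 0.20 in pancreas (adjusted p = 0.0404 and 0.0118). Cited2, which competes with HIF1A for its coactivators, was higher in liver than in duodenum by 0.84 ± 0.24 in log2 (adjusted p = 0.0452). Ndrg1, a stress-induced gene, had a log2 difference of -1.04 ± 0.23 in pancreas minus duodenum (adjusted p = 0.00989).

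The pentose phosphate pathway branches from glycolysis after hexokinase and supplies NADPH and ribose. Of its 7 listed genes, 1 was lower in liver than in duodenum, 3 were lower in pancreas than in duodenum and 0 were higher in either. Over all genes 3.95% and 3.94% were called lower. Among the 16833 genes with a mean of at least 1 TPM, where calls were more frequent, 1563 and 1537 were called lower. Tkt, transketolase, had 103 ± 16.02 TPM in liver, 181 ± 34.6 in duodenum and 105 ± 16.2 in pancreas, with a log2 difference of -0.98 ± 0.18 in liver minus duodenum (adjusted p = 0.00343) and -0.85 ± 0.18 in pancreas minus duodenum (adjusted p = 0.00833). Taldo1, transaldolase, had 877 ± 27.5, 898 ± 114 and 506 ± 57.7 TPM. Its log2 difference was -0.89 ± 0.15 in pancreas minus duodenum (adjusted p = 0.00161) and 0.69 ± 0.15 in liver minus pancreas (adjusted p = 0.039). Taldo1 thus had the tissue order of low pancreas that Hk2 and Hk3 had. At the entry of pyruvate into mitochondria, genes of pyruvate dehydrogenase did not move as one group. Pdp1, a phosphatase that activates the enzyme, was higher in pancreas than in duodenum by 1.04 ± 0.21 in log2 (adjusted p = 0.00553). Its level was 6.77 ± 0.363 TPM against 3.16 ± 0.671. The subunit gene Pdha1 differed from duodenum by -0.65 ± 0.15 in both pancreas and liver (adjusted p = 0.0157 and 0.0167). Pdhb, another subunit gene, differed by -0.61 ± 0.14 in liver (adjusted p = 0.0145). In pancreas its difference of -0.43 ± 0.14 did not pass (adjusted p = 0.0825). Dlat, Dld and Pdhx were not called.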

How the data were processed

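The authors deposited a table of estimated counts and a table of TPM, with 1 column for each of the 12 libraries. The submitters' processing notes name kallisto and GRCm39, and the version is not given in the sources used here. Over 12632 genes the counts had the form of values rebuilt from TPM with averaged gene lengths (largest deviation 1.1e-09 in log2). The estimated counts were rounded and tested in edgeR 4.0.16 (R 4.3.3, limma 3.58.1) by a robust quasi-likelihood fit of all 12 libraries with TMM factors and no block, over the 44624 genes that passed filterByExpr with a minimum count of 10, with calls made below 0.05 after Benjamini-Hochberg adjustment. The standard error is the absolute log2 difference divided by the square root of F. Fold levels are that log2 difference on a linear scale. Library totals were 220897606 to 356072585 estimated counts, and replicate libraries differed by more than sampling noise, with a chi-square of 76.5 to 417 per degree of freedom. Columns of values with no sample numbered 0.

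The members and gene lists were chosen with earlier results of these data known. Every called member, and Slc2a1, Hk2, Gapdh, Ldha, Hif1a and Vegfa whatever they showed, is given with all library values. Of the related list, up to 3 called genes are named for each comparison and direction. They are those of largest difference with at least 10 CPM in the higher tissue. The pyruvate dehydrogenase genes given beside Pdp1 are outside this rule. Near-identical genes were found with blastn 2.17.0 on annotated transcripts (95% identity over at least 200 bases). Promoters come from a RefSeq table of GRCm38.p6, another build than that of the counts, and no coordinate was carried between builds. The edgeR test was run on simulated counts for liver minus duodenum only, drawn with the spread fitted to these data. DESeq2, limma and the other comparisons were not checked in that way. Alternatives were DESeq2 1.42.0, other scalings, limma on log2(TPM + 1) and log2(TPM + 0.1), no filter, only the tissues compared, a replicate block, leaving out libraries and, added after seeing the data, copies summed with their gene. The single-cell libraries of lymph nodes named in the series design were not analysed here.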

Additional observations from a re-analysis of the deposited data

Results flagged for a closer look

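In 6 of the 102 member and tissue groups, 1 of the 4 libraries stood apart from the others by Dixon's test, where chance gives about 1 in 20. Ddit4 gave 2 of them, with liver 1 at 14.9 TPM against 1.32 to 3.08 in the other liver libraries and pancreas 3 at 4.84 TPM against 14.3 to 16.1. Slc2a3 was at 7.38 TPM in duodenum 1 and at 3.76 to 4.23 in the other duodenal libraries. Bnip3l was at 25.6 TPM in duodenum 2, the library in which most abundant enzymes were also low for its tissue, and at 41.7 to 43.3 in the others. Pfkm was at 1.45 TPM in liver 4 against 1.87 to 1.89, a small gap in size. The minor Aldoa row (ENSMUSG00000114515) was at 0.776 TPM in liver 2 against 0.142 to 0.244.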

How the results depend on the processing

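No called member difference changed sign under the 23 alternatives, while some uncalled ones near 0, such as those of Hk1 and Pfkl in liver minus duodenum, did. Of the 22 calls, 14 passed under all of them. In liver against duodenum, 1 member was higher and 6 were lower. The higher count was 5 with library totals, 2 with only the tissues compared, and 4 and 5 with limma on log2(TPM + 1) and log2(TPM + 0.1). The lower count was 12 with DESeq2 and 13 without duodenum 2 and pancreas 1. Related genes called were 20 with DESeq2, 20 without duodenum 2 and pancreas 1, and 4 without liver 2, pancreas 3 and pancreas 4. All genes called in these settings were 5133, 4913 and 2069. Leaving out single libraries gave 1 to 2 members higher, 4 to 13 lower, 4 to 19 related genes and 2397 to 4807 of all genes.

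In pancreas against duodenum, leaving out liver 2 and pancreas 3 and 4 gave 3 members higher, 5 related genes and 1712 of all genes. Leaving out duodenum 2 and pancreas 1 gave 13 members lower. Single libraries gave 4 to 5 members higher, 6 to 13 lower, 10 to 23 related genes and 2596 to 4716 of all genes. In liver against pancreas, library totals gave 5 members higher, 1 lower and 820 of all genes. DESeq2 gave 3 higher, 3 lower and 1171 of all genes, and DESeq2 size factors gave 1 related gene. Only the tissues compared, and leaving out duodenum 2 and pancreas 1, each gave 1 member lower. Leaving out liver 2 and pancreas 3 and 4 gave 1 member higher, 1 lower, 0 related genes and 177 of all genes. Single libraries gave 1 to 3 members higher, 0 to 1 lower, 1 to 2 related genes and 343 to 749 of all genes. The cause of these moves was not tested, beyond fewer libraries where some were left out.

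The share of called genes that were higher in liver moved with the scaling and the method. In liver against duodenum 46.0% of called genes were higher in liver, and 35.3% with DESeq2 size factors, 63.5% with library totals and 63.3% to 64.8% with limma. In liver against pancreas the share was 38.5%, and 52.2% with library totals and 55.6% to 56.9% with limma. The median of all genes in liver minus duodenum was 0.10, and 0.25 with library totals and 0.02 with DESeq2 size factors. No pairing by replicate number was visible in expression. Deviations of same-numbered libraries correlated from -0.14 to 0.11 over 12 pairs, and those of other-numbered libraries from -0.15 to 0.17 over 36. Such correlations cannot tell whether same-numbered pools shared mice. With the replicate number as a block, members higher and lower were 1 and 7, 5 and 7, and 1 and 0, and all genes called were 2931, 3125 and 436, with the Hk2 call in liver against pancreas and the Slc2a3 call in pancreas against duodenum lost. The standard errors in liver minus duodenum were widest for Ldhb (0.66), Ddit4 (0.64) and the minor Aldoa row (0.59).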
